A study of Rattus norvegicus with 14 samples.

Results

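The genes described here are tissue kallikreins of the epidermis, a family of secreted serine proteases. Beside them stands Klkb1, the plasma kallikrein gene, which lies on another chromosome. The rule named 9 genes, Klk12, Klk7, Klk6, Klk8, Klk10, Klk11, Klk13, Klk14 and Klkb1, and took every probe set annotated with exactly 1 of these symbols. This gave 7 genes with 1 probe set each, 6 tissue kallikreins and Klkb1, of 14497 genes in all, while Klk13 and Klk14 were not analysed here. Foreskins came from Sprague Dawley rat pups on postnatal day 5, and the RNA of 2 foreskins from 1 litter was pooled on 1 array. The dams of 7 litters were gavaged with 5 mg/kg/day flutamide, an antiandrogen drug, from day 16 through 20 of gestation. The other 7 litters came from dams given corn oil, the vehicle, on the same days. Values are log2 RMA values of Affymetrix Gene 1.0 ST probe sets, so 1 unit is a doubling of array signal.

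Tissue kallikreins are made as inactive precursors in the upper layers of the epidermis and secreted into the spaces between cornifying cells. Once activated there they cleave the desmosomal proteins that hold corneocytes together, which lets the outermost cells shed, and the inhibitor encoded by Spink5 keeps them in check. Plasma kallikrein, by contrast, is made mainly by the liver, circulates as a precursor and releases bradykinin from kininogen.

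The genes were chosen by measured values, since Klk12 and Klkb1 had stood near the top of the comparison of flutamide with corn oil litters in these same arrays. That comparison is therefore given for all 7 genes as a description, without a p-value for each gene. Counts of these genes under a p threshold are given beside the share of all genes. Differences are flutamide minus corn oil with limma's standard error (SE). Differences between array samples of whole tissue cannot tell a change in RNA per cell from a change in the number of cells. The medians of the 14 arrays lay within 0.0735 of each other over all 28826 probe sets. Over the genes tested, the SD of an array ran from 1.48 in flutamide replicate 7 to 1.60 in corn oil replicate 1. The 8 measured markers of cornified epidermis ranged widely in array signal, with Krt10 at 12.34 in flutamide and 12.34 in corn oil litters and Krt1, its keratin partner, at 11.97 and 11.92, while Krt2, another epidermal keratin, was at 4.59 and 4.62. Litters stood apart on some of these genes, and the values without them are given beside the results. With 14 arrays, their number sets the precision.

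The promoters of 4 of these genes are shown because Klk12 and Klk10 had the largest differences among the tissue kallikreins and Klk7 and Klk6 varied most closely together from litter to litter. Each sequence is from RefSeq on the GRCr8 assembly, from 250 bases before to 50 bases after the start of the gene, read 5′ to 3′. Capitals mark matches on either strand to AGAACA, the core hexamer of the element that steroid receptors bind, or to TGANTCA, the site of AP-1 factors.
Klk12, chr1:103359077-103359376, plus strand: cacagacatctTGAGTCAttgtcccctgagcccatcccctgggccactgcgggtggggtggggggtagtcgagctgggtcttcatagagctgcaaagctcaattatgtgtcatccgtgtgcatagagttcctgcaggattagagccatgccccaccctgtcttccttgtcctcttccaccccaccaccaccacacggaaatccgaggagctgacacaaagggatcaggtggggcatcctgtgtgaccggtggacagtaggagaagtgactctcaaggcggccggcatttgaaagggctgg
Klk10, chr1:103371388-103371687, plus strand: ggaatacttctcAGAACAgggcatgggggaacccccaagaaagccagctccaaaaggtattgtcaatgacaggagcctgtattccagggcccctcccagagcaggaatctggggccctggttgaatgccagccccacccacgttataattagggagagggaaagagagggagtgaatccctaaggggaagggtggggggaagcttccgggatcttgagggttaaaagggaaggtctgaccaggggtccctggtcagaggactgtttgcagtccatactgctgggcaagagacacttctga
Klk7, chr1:103403466-103403765, plus strand: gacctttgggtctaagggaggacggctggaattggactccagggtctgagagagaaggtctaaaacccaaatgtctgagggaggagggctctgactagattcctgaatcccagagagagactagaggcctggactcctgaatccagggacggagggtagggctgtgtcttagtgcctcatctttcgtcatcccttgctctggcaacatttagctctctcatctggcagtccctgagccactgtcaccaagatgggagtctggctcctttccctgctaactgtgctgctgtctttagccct
Klk6, chr1:103415266-103415565, plus strand: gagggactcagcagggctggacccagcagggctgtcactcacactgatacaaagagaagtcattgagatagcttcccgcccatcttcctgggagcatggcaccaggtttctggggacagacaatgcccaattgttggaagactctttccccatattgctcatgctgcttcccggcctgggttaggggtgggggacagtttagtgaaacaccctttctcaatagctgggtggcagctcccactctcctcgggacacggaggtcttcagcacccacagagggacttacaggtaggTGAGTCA
Among the 8 promoters found for the 9 genes, AGAACA occurred in 1, that of Klk10, at position -238 from the start of the gene. Of all 33469 promoters of this length in the table, 20.7% held these letters on either strand. TGANTCA occurred in 2 of the 8, those of Klk12 and Klk6, and in 7.33% of all promoters. The Klk12 match was at position -239 and the Klk6 match at position 43, after the start of the gene. No promoter was found for Klk8. The full palindrome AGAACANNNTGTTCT, which contains AGAACA on both strands, was found in none of the 8 and in 0.0149% of all promoters. These matches describe letters in a window and are not binding sites.

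Klk12, which encodes a trypsin-like protease, had the largest difference among the tissue kallikreins. Its probe set, 10706399, ran from 6.43 to 6.89 with a median of 6.60 in flutamide litters, against 5.98 to 6.51 with a median of 6.18 in corn oil litters. All 7 flutamide litters lay above the corn oil median and 6 lay above the highest corn oil litter, so the groups overlapped at 1 litter on each side. Means were 6.61 ± 0.14 in flutamide and 6.23 ± 0.18 in corn oil litters (SD, n = 7 each), a difference of 0.38 (SE 0.08) or a 1.30-fold level. Flutamide replicate 1 stood above the rest of its group at 6.89. The difference ran from 0.34 to 0.43 over the fits that each leave 1 litter out.

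Klk10 came next. It encodes a kallikrein first described in human breast epithelium, where it is lost in tumours. Values ran from 7.34 to 7.67 with a median of 7.43 in flutamide litters, against 6.99 to 7.57 with a median of 7.19 in corn oil litters. All 7 flutamide litters again lay above the corn oil median, and 3 lay above the highest corn oil litter. The means were 7.48 ± 0.14 and 7.23 ± 0.21 (SD, n = 7 each), a difference of 0.26 (SE 0.09) or 1.19-fold, between 0.22 and 0.31 with single litters left out. Corn oil replicates 1 and 5 were the corn oil litters that reached into the flutamide range.

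Klk11, whose gene lies between Klk12 and Klk10, showed a much smaller difference. This trypsin-like protease ran from 6.02 to 6.22 with a median of 6.12 in flutamide litters, against 5.93 to 6.17 with a median of 6.07 in corn oil litters. Its difference was 0.06 (SE 0.05), with overlapping groups and the narrowest spread between litters of the 7 genes, an SD of 0.06 in flutamide and 0.07 in corn oil litters.

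Klk7, Klk8 and Klk6 were close to 0 in the comparison. Klk7, the chymotrypsin-like protease of the stratum corneum that cuts corneodesmosin and desmocollin 1, ran from 9.86 to 10.19 with a median of 10.07 in flutamide litters, against 9.90 to 10.38 with a median of 10.11 in corn oil litters. Its difference was -0.04 (SE 0.08), the only one of the 7 below 0, and turned to 0.008 without corn oil replicate 1, the highest litter for this gene. Klk8, also called neuropsin and found in both brain and epidermis, had a median of 7.48 (7.30 to 7.69) in flutamide and 7.45 (7.20 to 7.66) in corn oil litters. The Klk8 difference was 0.007 (SE 0.08) and lay on either side of 0, from -0.04 to 0.04, with single litters left out.

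Klk6, a trypsin-like protease of brain and epithelia, varied most from litter to litter. It ran from 6.82 to 7.86 with a median of 7.38 in flutamide litters, against 6.995 to 7.97 with a median of 7.29 in corn oil litters. The top value in each group belonged to replicate 1, at 7.86 in flutamide and 7.97 in corn oil, where the next highest litters were at 7.42 and 7.36. The difference of 0.02 (SE 0.14) became 0.13 without corn oil replicate 1 and -0.07 without flutamide replicate 1.

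Klkb1, the plasma kallikrein gene, had the largest difference of the 7. Values ran from 4.53 to 5.10 with a median of 4.89 in flutamide litters, against 4.24 to 4.79 with a median of 4.36 in corn oil litters. Of the flutamide litters, 5 lay above the highest corn oil litter, and replicates 2 and 5 lay within the corn oil range. The means of 4.87 ± 0.22 and 4.44 ± 0.18 (SD, n = 7 each) gave a difference of 0.42 (SE 0.10) or 1.34-fold, from 0.38 to 0.48 with single litters left out. This is a dim probe set, at the 17.5 percentile of mean value over all genes tested, where RMA shrinks differences. Whether its signal lay above array background was not tested. Hepatocyte markers, 7 of 7 measured, had list means between 4.39 and 4.63 in flutamide and between 4.46 and 4.72 in corn oil litters, with Alb, the albumin gene, at 3.92 and 3.88. The hepatocyte list means differed by 0.004 (two-sided exact permutation p = 0.925, adjusted over 9 marker lists 0.925). With single litters left out this ran from -0.01 to 0.03, the highest without corn oil replicate 3 (exact permutation p = 0.358, adjusted 0.461).

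**Figure D1:**
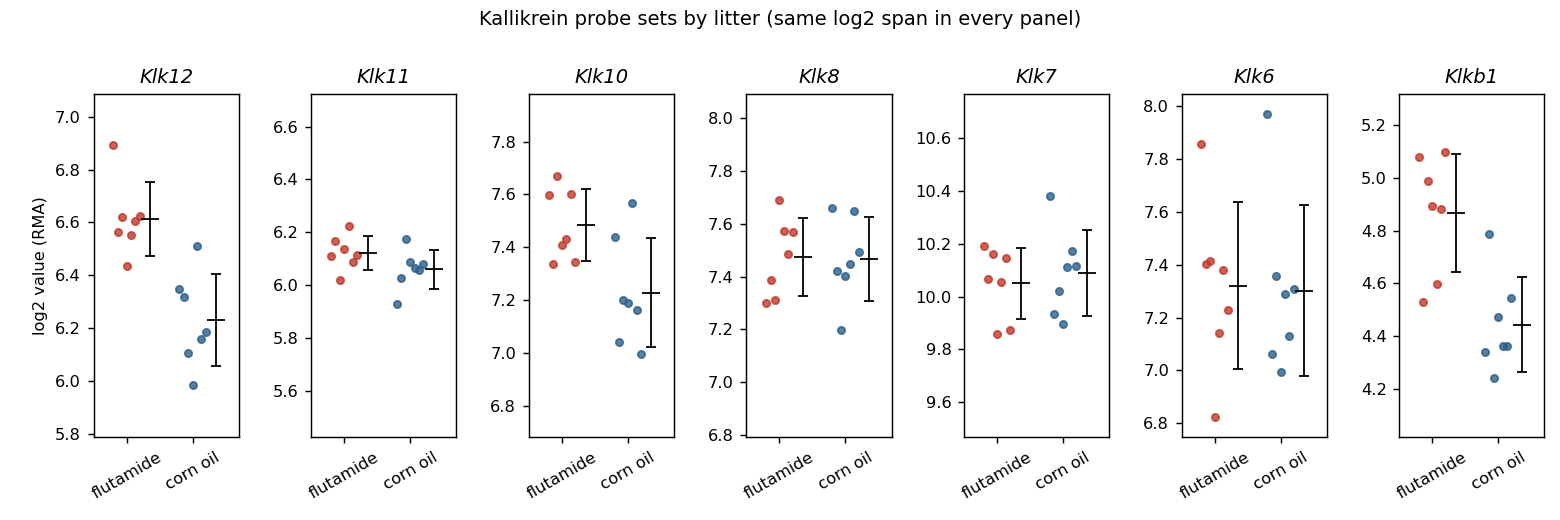
Log2 RMA values of the 7 genes in each litter (points, 7 flutamide and 7 corn oil litters per gene), with the group mean and SD beside them. Each panel spans the same number of log2 units, so the shift of Klk12, Klk10 and Klkb1 can be set beside the other 4 genes by eye. The groups overlap for all 7 genes.

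Counted together, 6 of the 7 genes had a difference above 0, as did 52.3% of all 14497 genes. The median difference was 0.06 over the 7 genes and 0.005 over all genes tested. In limma's test with Benjamini-Hochberg adjustment over all genes, 0 of the 7 had an adjusted p under 0.05, where 0.00690% of all genes did. At an unadjusted limma p under 0.05 there were 3 of the 7, Klk12, Klk10 and Klkb1, and 9.16% of all genes. All 3 were higher in flutamide litters, as were 5.70% of all genes at that p, while 0 of the 7 and 3.46% of all genes were lower. The groups did not overlap for 0 of the 7 genes and for 0.124% of all genes. These counts used the comparison by which Klk12 and Klkb1 were chosen.

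The tissue kallikreins form 1 cluster on rat chromosome 1, and RefSeq places Klk12, Klk11, Klk10, Klk9, Klk8, Klk7 and Klk6 side by side in this order with no other annotated gene between them. Klkb1 lies on chromosome 16. Along this run the differences were 0.38, 0.06, 0.26, 0.02, 0.007, -0.04 and 0.02, so neighbouring genes differed in size and the 2 largest flank Klk11. Another 12 tissue kallikreins were measured, namely Klk9, Klk4, the enamel protease gene, and 10 genes of the glandular group around Klk1, the renal and salivary kallikrein. Of these 12, 0 passed in the limma fit, with adjusted p between 0.499 and 0.983. At an unadjusted limma p under 0.05 there was 1, where 9.16% of all genes were. This was Klk1c4, with 4.46 ± 0.19 in flutamide and 4.27 ± 0.12 in corn oil litters (SD, n = 7 each). Its difference was 0.19 (SE 0.08, limma adjusted p = 0.499), on a dim probe set at the 13.7 percentile of mean value over all genes tested. The lowest difference was that of Klk1b3, -0.09 (SE 0.11), and Klk1 itself differed by -0.08 (SE 0.11). The glandular genes are near-identical copies, so their probe sets may share transcripts. For Klk1c10, the 1 gene with several probe sets, the brightest differed by -0.02 and the others by 0.06 and -0.03.

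**Figure D2:**
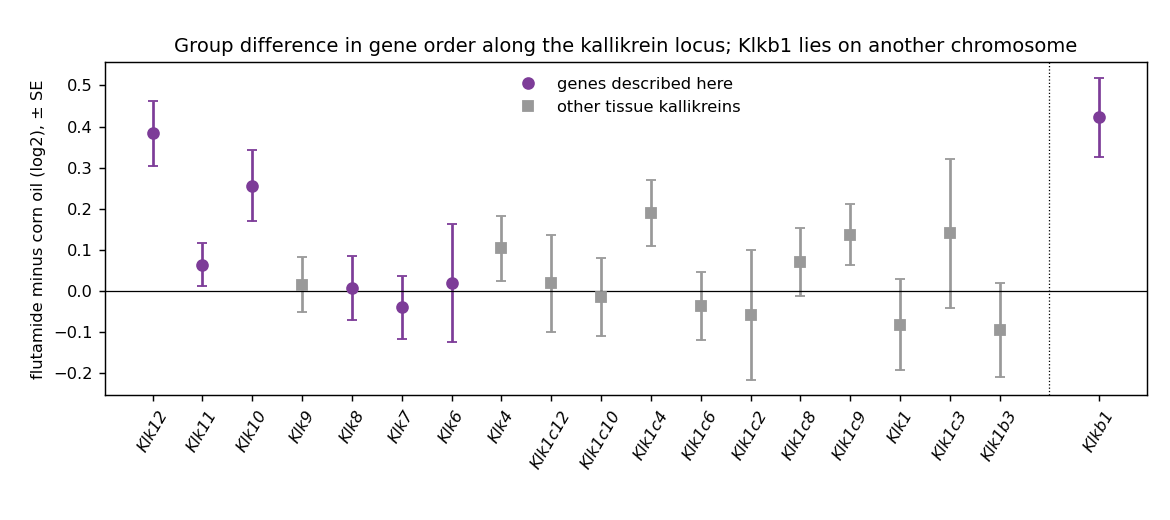
Difference in log2 value, flutamide minus corn oil, with limma's standard error, for the 18 tissue kallikreins measured in their order along chromosome 1, and for Klkb1 at the right. Purple circles are the genes described here and grey squares the other tissue kallikreins. Klk12 and Klk10 stand above their neighbours.

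Genes of proteins that act on kallikreins showed no call. Of the 12 listed inhibitors and activators 10 were measured and 0 passed in either direction in the limma fit (0 at an unadjusted p under 0.05), with differences from -0.10 to 0.07. The smallest p-values were those of Prss8, the membrane protease prostasin, with -0.10 (SE 0.08; limma adjusted p = 0.746), Tmprss13, another membrane protease, with -0.08 (SE 0.06; limma adjusted p = 0.754) and Spint2, a Kunitz-type inhibitor, with 0.07 (SE 0.07; limma adjusted p = 0.786). St14, which encodes matriptase, an activator of epidermal proteases, differed by -0.06 (SE 0.06; limma adjusted p = 0.821). Spink5 was not analysed here.

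Among 11 listed substrates and receptors 4 were measured and 0 passed in limma (0 at an unadjusted p under 0.05). F2rl1, the gene of the protease-activated receptor PAR2 that kallikreins can switch on, had 5.09 ± 0.18 in flutamide and 4.90 ± 0.18 in corn oil litters (SD, n = 7 each), a difference of 0.18 (SE 0.09; limma adjusted p = 0.547). Il1a differed by 0.07 (SE 0.11) and Camp, the cathelicidin gene, by -0.06 (SE 0.07), with limma adjusted p of 0.882 and 0.862. Cdsn, the corneodesmosin gene, was not analysed here.

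In the plasma contact system, in which Klkb1 acts, 10 of 11 listed genes were measured and 0 passed in limma, with 1 at an unadjusted p under 0.05. This was Cpn1, which encodes a kinin-cleaving carboxypeptidase, with 0.16 (SE 0.07; limma adjusted p = 0.535). F12, the factor that activates plasma kallikrein, differed by -0.13 (SE 0.09) and F11, coagulation factor XI, by 0.08 (SE 0.07). Their limma adjusted p were 0.707 and 0.749. Over the 10 measured genes of this list, 3 differences were above 0 and 7 below, from -0.24 to 0.16.

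How the 7 genes varied together from litter to litter was examined on values centred within each group, which leaves the difference between groups out. Klk7 and Klk6 moved together, with Pearson r = 0.83 and Spearman rho = 0.83 over 14 litters. Its two-sided permutation p was 0.00054 for r and 0.00084 for rho, or 0.0113 and 0.0176 after adjustment over 21 pairs, the only pair to pass. Within groups r was 0.80 in flutamide litters (exact permutation p = 0.0123) and 0.86 in corn oil litters (exact permutation p = 0.0163). Without the 2 litters farthest from the median of Klk7, corn oil replicates 1 and 4, it was 0.70. Leaving out corn oil replicate 1 alone gave 0.72, and the pair no longer passed the adjusted threshold. For both genes replicate 1 was highest and replicate 4 lowest in each group. With the replicate number as a block in the limma fit, the SE of the group difference fell from 0.14 to 0.07 for Klk6. For Klk7 it fell from 0.08 to 0.06. The permutations treated litters within a group as independent, and no correlation was run with that block, so these p-values do not allow for it.

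Klk12 and Klk10 fell on the same side of this pattern, although none of their pairs passed. The 6 pairs among Klk12, Klk10, Klk7 and Klk6 had r from 0.50 to 0.83, a grouping picked after the correlations were seen and given as a description. Klk12 had r = 0.63 with Klk6 (rho 0.53, permutation p = 0.0242, adjusted 0.254) and r = 0.56 with Klk10 (rho 0.36, permutation p = 0.0558, adjusted 0.262). The second became 0.24 without corn oil replicate 5 and flutamide replicate 1, so it rested on those litters. Klk10 and Klk7 had r = 0.58 (rho 0.51, permutation p = 0.0454, adjusted 0.262), or 0.50 without corn oil replicates 5 and 1. Klk11 lay on the other side, with r between -0.50 and -0.24 to each of the other 6 genes, and Klkb1 had r = 0.27 with Klk12 and values below 0 with the rest. None of these Klk11 or Klkb1 pairs passed after adjustment.

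Klk8 had r near 0 with Klk7 over all litters, at 0.03, but the groups went opposite ways. In flutamide litters r was -0.85 with Klk7 and -0.90 with Klk6, against 0.71 and 0.38 in corn oil litters (n = 7 each). The difference in r between the groups had an exact permutation p of 0.00641 for Klk7 and 0.0309 for Klk6, or 0.135 and 0.297 after adjustment over 21 pairs, so neither passed. This comparison was chosen after the correlations were seen.

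**Figure D3:**
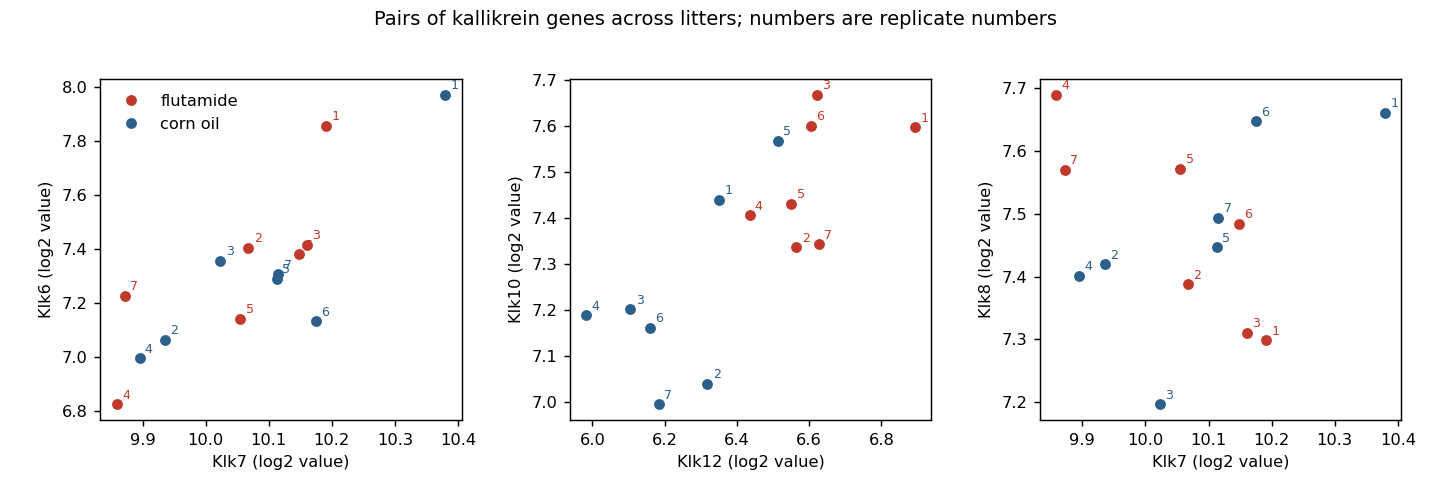
Log2 values of Klk6 against Klk7, Klk10 against Klk12 and Klk8 against Klk7 in the 7 flutamide and 7 corn oil litters, each point labelled with its replicate number. Klk7 and Klk6 rise together across both groups, while Klk8 and Klk7 slope down in flutamide and up in corn oil litters.

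The relation to the cornified layer was examined next. The mean of the 8 measured markers of cornified epidermis, of 19 listed, had r between -0.51 and 0.30 with the 7 genes, and 0 of 7 relations passed or had a permutation p under 0.05. For Klk7 r was 0.02 (rho -0.03, permutation p = 0.956, adjusted 0.956) and for Klk12 -0.34 (rho -0.30, permutation p = 0.268, adjusted 0.571). Without corn oil replicate 2 and flutamide replicate 1 these r were -0.04 and 0.08. The list itself averaged 9.52 ± 0.05 in flutamide and 9.48 ± 0.05 in corn oil litters (SD, n = 7 each; exact permutation p = 0.129, adjusted over 9 lists 0.232). Within it 5 markers had a difference above 0 and 3 below, with a median of 0.02. These ran from -0.09 for Ivl to 0.28 for Cnfn, a cornified envelope gene (SE 0.07, limma adjusted p = 0.302).

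Markers of mucosal squamous epithelium had their highest r with Klk7, Klk10 and Klk6. This list had 3 measured genes of 6, the keratins Krt13 and Krt4 of moist epithelia and Krt16 of activated keratinocytes, and its relations with the 7 genes were examined after the values were seen, among 63 relations of 9 lists. Its mean had r = 0.74 with Klk7 (rho 0.69, permutation p = 0.00213), 0.73 with Klk10 (rho 0.60, permutation p = 0.00217), 0.70 with Klk6 (rho 0.63, permutation p = 0.00701) and 0.51 with Klk12 (rho 0.54, permutation p = 0.0529). Over the 63 relations the adjusted p were 0.0684, 0.0684, 0.103 and 0.333, so none passed. Without flutamide replicate 6 and corn oil replicate 1, the litters farthest from the list's median, these r were 0.65, 0.70, 0.69 and 0.61. Klk11 again ran the other way with r = -0.67 (rho -0.66, permutation p = 0.00896, adjusted 0.103), or -0.56 without those litters.

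The same list differed between the groups in the direction of Klk12 and Klk10, without passing over the 9 lists. Its means ran from 6.60 to 7.73 in flutamide and from 6.34 to 7.16 in corn oil litters, averaging 7.05 ± 0.47 and 6.58 ± 0.29 (SD, n = 7 each), a difference of 0.47 (exact permutation p = 0.0460, adjusted over 9 lists 0.232). Krt13 was at 7.67 and 7.16, Krt16 at 7.78 and 7.15 and Krt4 at 5.72 and 5.44. With the list mean as a covariate in the fit, added after the values were seen, the Klk10 difference was 0.10 (SE 0.08) and that of Klk12 0.28 (SE 0.09), while that of Klkb1 was 0.39 (SE 0.12). Klk7 was then at -0.17 (SE 0.07) and Klk6 at -0.25 (SE 0.13). The part of this epithelium in the kallikrein differences was not tested.

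For immune cell markers the highest r was with Klk6. The mean of 8 such markers had r = 0.77 with Klk6 (rho 0.48, permutation p = 0.00489, adjusted over 63 relations 0.103), which became 0.27 without flutamide replicate 1 and corn oil replicate 1. Those litters had the highest immune list mean of their groups, 6.10 in flutamide and 5.86 in corn oil, and also the highest Klk6 values. Klk7 had r = 0.59 with the same list (rho 0.56, permutation p = 0.00979, adjusted 0.103), or 0.40 without these litters. Klk12 had r = 0.56 (rho 0.16, permutation p = 0.0462, adjusted 0.333), or -0.05 without them.

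**Figure D4:**
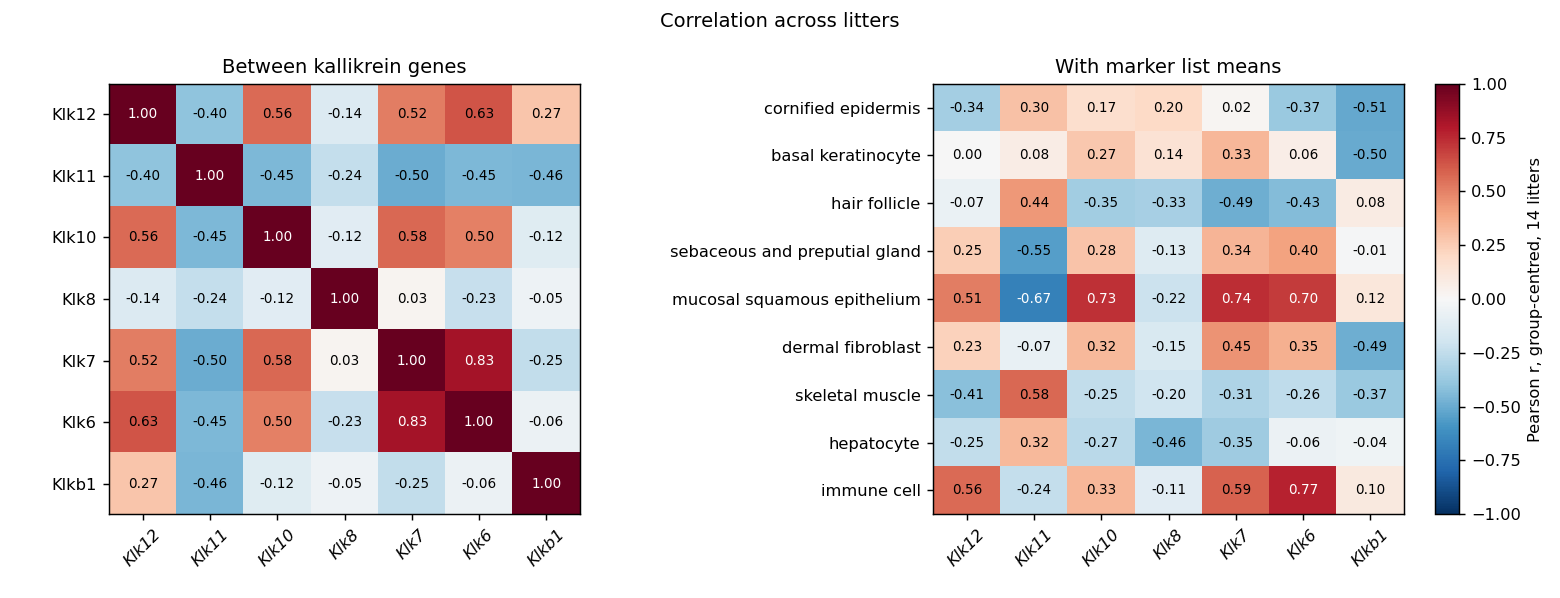
Pearson r of group-centred log2 values over the 14 litters, between the 7 genes (left) and between each gene and the mean of each marker list (right). Klk12, Klk10, Klk7 and Klk6 form a block above 0 and have r from 0.51 to 0.74 with the mucosal list, while Klk11 runs the other way.

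The genes most like Klk7 in pattern, by Pearson r of group-centred values over the 14 litters, were Gdf10, a growth factor of the TGF-beta family, with 0.91, Tmprss11d, a serine protease of airway and other mucosal epithelia, with 0.87, Hbb-b1, a haemoglobin chain, with 0.86, Ada, adenosine deaminase, with 0.85, and Serhl2 with 0.85. Klk6 stood at place 12 of the 14496 other genes by this measure and Klk10 at place 446. For Klk12 the closest were Rasd2 with 0.87, Nceh1 with 0.85, Zfp709 with 0.84, Klrc3 with 0.82 and Apba1 with 0.80, and Klk6 followed at place 129. For Klkb1 they were Tspoap1 with 0.86, Usp54 with 0.85, the chemokine gene Ccl5 with 0.84, RT1-DMa, an antigen-presentation gene, with 0.83 and Prm3 with 0.80. The highest of so many r over 14 litters are high whatever the gene, and these are given as a description.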

How the data were processed

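The authors deposited log2 values of 28826 probe sets in 14 samples, made with RMA per the submitters' processing notes. RMA subtracts background, equalises array distributions and combines the probes of a set. Its version and the genome build were not given in the sources used here. That values are log2 was judged from their range. Probe sets with exactly 1 symbol in GEO's platform annotation (15209) were used, with symbols updated by gene number through RefSeq (GRCr8; 14471 of 14497 genes matched) and the brightest probe set kept per gene.

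The group comparison used limma 3.58.1 (R 4.3.3) over all 14497 genes, two-sided, with Benjamini-Hochberg adjustment and a threshold of 0.05; the fit was tested on simulated data. Litter correlations used 100000 permutations within groups. List means used the exact test over 3432 splits, whose smallest p is 0.000583. The genes and lists were chosen with earlier results of these data known. Named genes were the 9 of the rule, all other measured Klk genes, the 3 smallest p per pathway list, Spink5, St14, Cdsn and F2rl1, and the 5 genes most like Klk12, Klk7 and Klkb1, passing over predicted genes and chemosensory receptors. Single marker genes were named to describe their lists, after their values were seen. Alternatives were other gene sets, scalings, variance models, covariates and left-out litters. The mucosal covariate, the relations with all marker lists and correlations with array SD regressed out were added after seeing the data. Litters of the same replicate number had correlated deviations of -0.0715 to 0.147, above 0.1 for 1 number of 7, and are not said to share a dam or day, so they were not paired. That samples are separate litters is per the labels and design text.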

Additional observations from a re-analysis of the deposited data

Results flagged for a closer look

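Over 56 groups of 7 litters, covering the 19 kallikrein genes and 9 marker lists, a litter stood far from the rest of its group in 6; chance gives about 1 in 20 groups. These 6 came from 3 litters, and the genes and lists are not independent of each other. For Klk12, flutamide replicate 1 was at 6.89, with the next litter at 6.63 and the lowest at 6.43. For Klk6, corn oil replicate 1 was at 7.97, with the next litter at 7.36. The immune cell list mean was highest in the same litters, at 6.10 in flutamide replicate 1 (next 5.58) and at 5.86 in corn oil replicate 1 (next 5.61). On the hair follicle list corn oil replicate 1 was lowest at 6.69 (next 6.89), and on the hepatocyte list corn oil replicate 3 was highest at 4.72 (next 4.55).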

How the results depend on the processing

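Under every alternative run, and with each litter left out, 0 of the 7 genes had a limma adjusted p under 0.05. The differences of Klk12, Klk10, Klk11 and Klkb1 stayed above 0 throughout. Those of Klk6, Klk7 and Klk8 changed sign under some settings, and 4 to 7 genes were above 0 with single litters left out, with medians from 0.05 to 0.13. Over all genes, 1 was called; 2 were called with trend and robust variance or with array SD as a covariate, 0 with the replicate number as a block (replicate block), 0 with flutamide replicate 7 and corn oil replicate 1 both left out, 0 with the mucosal covariate, and 0 to 1 with single litters left out. The block changed no call of the 7 genes. Its largest change in SE was for Klk6, from 0.14 to 0.07, while the SE of Klk11 and of Klkb1 rose. The correlations were not run with the block. Of the 21 pairs, 1 passed. Without centring 3 passed, but uncentred values hold the group difference by which Klk12 and Klkb1 were chosen. With single litters left out 0 to 1 passed, 0 being without corn oil replicate 1. With flutamide replicate 7 and corn oil replicate 1, the arrays of lowest and highest SD, both left out, 0 passed. No marker list passed except 2 with those litters left out, mucosal epithelium (0.65, exact permutation adjusted p = 0.0292) and hair follicle (-0.16, exact permutation adjusted p = 0.0292). The filter on dim genes removed Klkb1. The number of arrays and the low brightness of Klkb1 limit these values.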

Other observations

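The foreskin holds other cell types whose marker lists were measured beside the kallikreins, and none passed over 9 lists in the exact permutation test. Hair follicle markers averaged 6.82 ± 0.08 in flutamide and 6.92 ± 0.11 in corn oil litters (SD, n = 7 each), a difference of -0.10 (exact permutation p = 0.0798, adjusted 0.232). Skeletal muscle markers averaged 6.56 ± 0.19 and 6.73 ± 0.17, a difference of -0.17 (exact permutation p = 0.107, adjusted 0.232). Sebaceous and preputial gland markers differed by -0.07 (exact permutation p = 0.0880, adjusted 0.232) and basal keratinocyte markers by -0.05 (exact permutation p = 0.172, adjusted 0.259). Dermal fibroblast markers differed by 0.01 (exact permutation p = 0.693, adjusted 0.891) and immune cell markers by -0.02 (exact permutation p = 0.823, adjusted 0.925). Without flutamide replicate 1 the immune cell difference was -0.11 (exact permutation p = 0.0443, adjusted 0.199), and without corn oil replicate 1 it was 0.02 (exact permutation p = 0.977, adjusted 0.977).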
